A study of Mus musculus with 6 samples.

Results

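The mitochondrial ribosomal protein genes were taken as every protein-coding mouse gene whose symbol begins with *Mrpl* or *Mrps* followed by a digit, after the Ensembl identifiers of the deposited table had been matched to gene symbols. The annotation holds 78 such genes, 49 for the large subunit (*Mrpl*) and 29 for the small subunit (*Mrps*). All 78 were among the 16381 genes listed, and all 78 passed the filter on low values, so that none had to be left out. They are encoded in the nucleus and none lies on chromosome X or Y. Mitochondria carry their own ribosome, the mitoribosome, which translates the few messages of the mitochondrial genome, all of which encode subunits of the respiratory chain and the ATP synthase. Its small subunit binds and decodes the mRNA, and its large subunit joins the amino acids and passes the new chain through an exit tunnel that sits against the inner membrane. Its proteins are made in the cytosol and imported, some descend from bacterial ribosomal proteins and others are found only in mitochondria. Mitochondrial translation is known for its part in lymphocyte activation, when cells expand their respiratory capacity.

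The cells were activated group 2 innate lymphoid cells (ILC2s), tissue-resident lymphocytes that make type 2 cytokines, sorted from the lungs of wild-type BALB/c mice that had received 0.5 µg IL-33 a day for 3 days. By the study's methods the donors were females of 6 to 8 weeks and the sort gave a purity above 95%. Cells were cultured for 24 h with 250 µM melatonin (n = 3) or with DMSO as vehicle (n = 3), and IL-33 had been given to the donors of both groups. The labels do not say whether samples of a group came from separate animals or cultures, so the p-values below measure only the spread between these samples. Within the vehicle group that spread may be technical, while the melatonin samples differ in sex-linked RNA, as given below. Melatonin and vehicle libraries carry separate runs of library numbers, so any batch tied to these numbers and the treatment itself cannot be told apart. The depth ranged from 17056266 to 20511708 estimated counts in a sample. In the 3 vehicle samples and melatonin replicate 1, the Y-linked gene *Ddx3y* had between 746 and 1071 normalised counts, and it was listed at 0 in melatonin replicates 2 and 3. *Xist*, the X-inactivation RNA of female cells, had 579 and 1091 normalised counts in those 2 samples and at most 13.6 in the other 4, which goes against the stated sex of the donors, so the counts of genes called in each group of genes were also taken without melatonin replicate 1. That leaves vehicle samples with Y-linked RNA against melatonin samples with *Xist*, so in those counts sex and treatment cannot be told apart, and melatonin replicate 1 is the only melatonin sample that shares the Y-linked RNA of the vehicle samples.

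The defining markers of ILC2s were present in every sample, among them *Gata3*, the lineage-defining transcription factor, at between 17890 and 24588 normalised counts. Summed over the 8 ILC2 markers, the level was 105684 to 111814 with vehicle and 86150 to 88604 with melatonin, and the markers went both ways. *Il1rl1* and *Rora* were called higher, *Klrg1*, *Areg*, *Il7r* and *Il2ra* were called lower, and *Gata3* and *Icos* were not called. Most listed markers of other lung cells were lower in the melatonin samples. Over 4 of 4 myeloid markers the sum was 1035 to 1217 with vehicle and 254 to 664 with melatonin, and over 2 of 4 T cell markers, with *Cd4* and *Cd8a* not listed, it was 198 to 239 and 40.2 to 119. *Pecam1*, an endothelial marker and the only listed gene of 4 for endothelium and fibroblasts, ranged from 1001 to 1066 and from 310 to 416, and the B cell marker *Cd79a*, the only listed gene of 3, from 2.10 to 9.33 and from 0 to 2.01. Over 3 epithelial markers the sums were 873 to 2068 and 1022 to 1236, although 2 of the 3 were called lower and 1 higher. *Scgb1a1* had 95.2, 21.5 and 1045 normalised counts with vehicle and 0, 0 and 1.01 with melatonin. The mean of *Sftpc* was 222 with vehicle and 5.0 with melatonin, and that of *Epcam*, the marker called higher, was 667 and 1097. The part of these cell types in the values below was not tested, and in bulk RNA fewer cells of a type and less RNA per cell cannot be told apart.

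The RNA of many of the mitoribosomal genes was moderately lower in the melatonin samples than in the vehicle samples, and that of a few was higher. A gene was called where limma, fitted over 14419 genes on log2(normalised count + 1), gave a Benjamini-Hochberg adjusted p below 0.05. Of the 78 members, 38 were called lower (48.7%) and 3 higher (3.85%), and 37 were not called. Over all genes tested, 24.7% were called lower and 24.5% higher. Members are abundant genes, and among the 9990 genes with a mean of at least 100 normalised counts the shares were 26.4% and 30.7%. The median log2 fold change over the members was -0.25, with a range from -1.61 to 0.43, while over all genes tested it was -0.0046. Fold changes were negative for 67 members and positive for 11. Without melatonin replicate 1, limma called 35 members lower and 6 higher, with a median of -0.22.

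The groups did not overlap for 53 of the members. All 3 melatonin values lay below all 3 vehicle values for 49 members (62.8%), against 30.3% of all genes tested, and above them for 4 (5.13%), against 30.0%. Without melatonin replicate 1 the counts were 49 below and 9 above, against 34.4% and 34.0% of all genes tested. Of the 38 members called lower, 19 had a log2 fold change of -0.5 or less and only *Mrps28* and *Mrps18b* fell below -1. When each sample was left out in turn, 27 of the 38 were called lower in all 6 fits of limma. The other 11 were *Mrpl9*, *Mrpl22*, *Mrpl28*, *Mrpl34*, *Mrpl37*, *Mrpl43*, *Mrps5*, *Mrps10*, *Mrps11*, *Mrps14* and *Mrps36*.

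**Figure D1:**
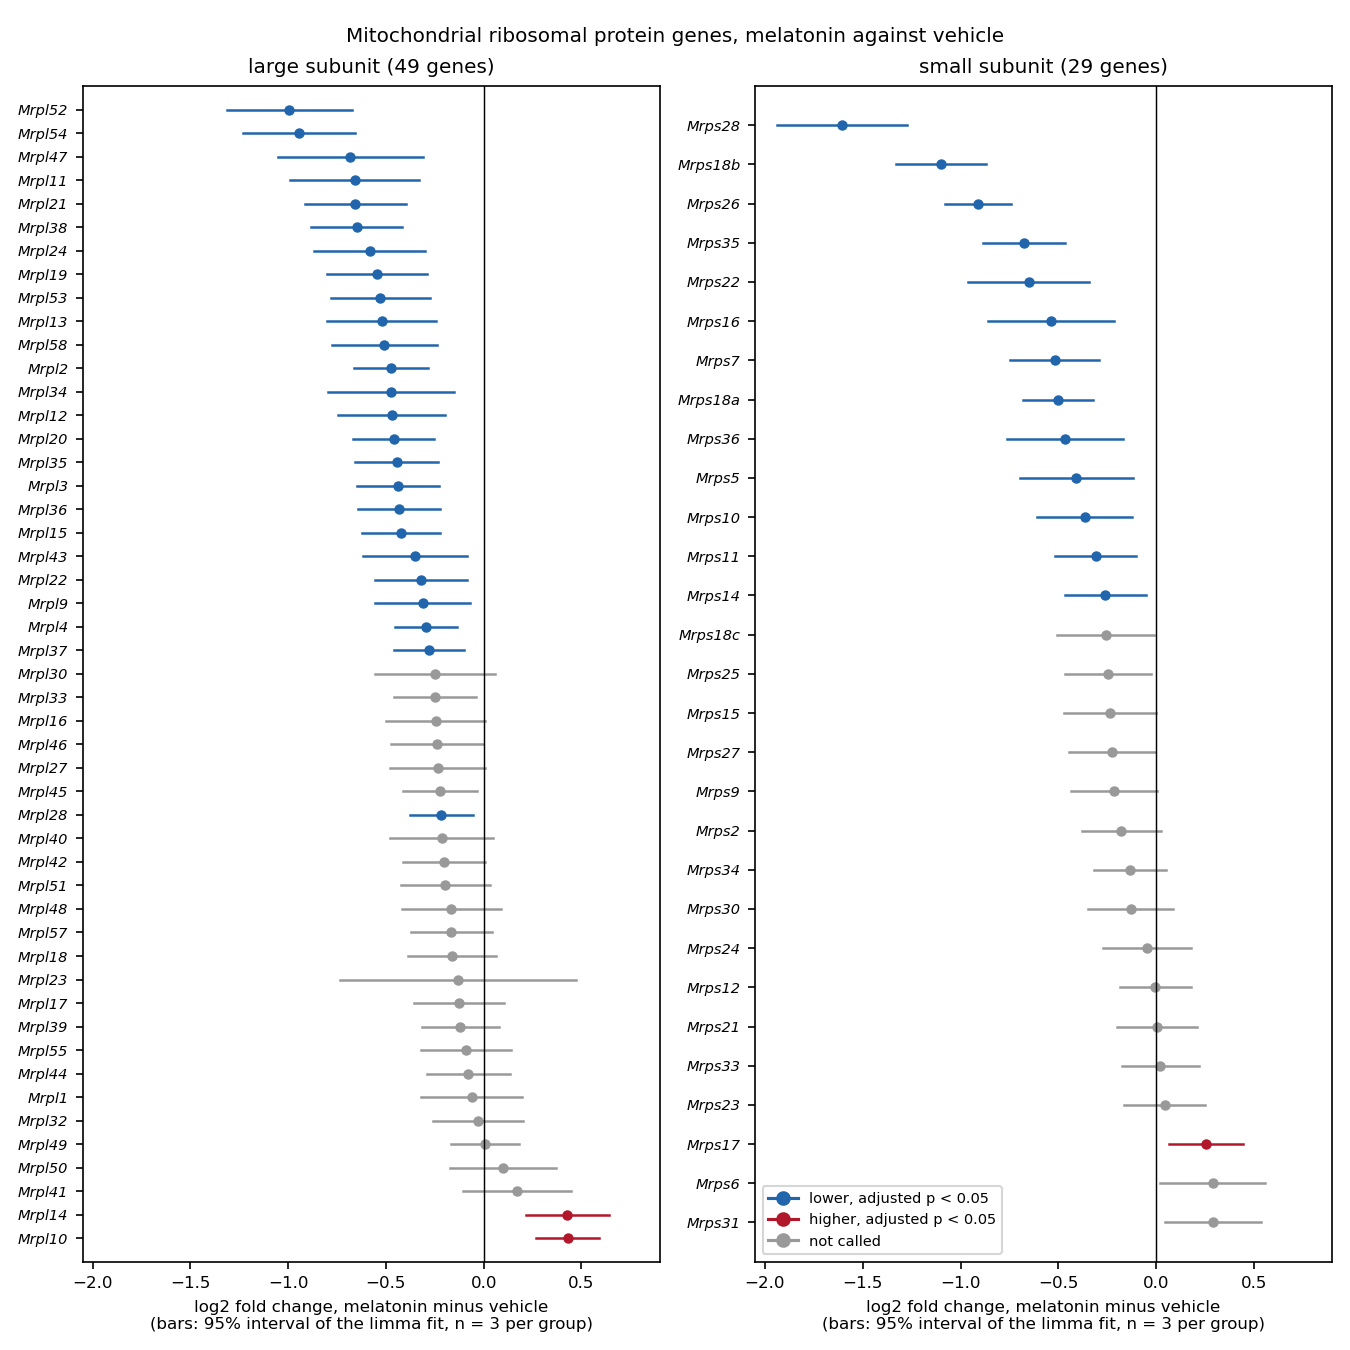
Log2 fold change (melatonin minus vehicle, horizontal axis) of each of the 49 large-subunit and 29 small-subunit genes, ordered by fold change, with the 95% interval of the limma fit (n = 3 per group). The points run from -1.61 for *Mrps28* to 0.43 for *Mrpl10*, with 38 called lower in blue, 3 called higher in red and 37 not called in grey.

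The 2 largest falls were those of *Mrps28* and *Mrps18b*, both of the small subunit, followed by *Mrpl52* and *Mrpl54* of the large subunit. *Mrps28*, the counterpart of bacterial ribosomal protein S1 (chromosome 3, 8865093 to 8988978 of GRCm39), had 871, 891 and 832 normalised counts with vehicle and 230, 285 and 347 with melatonin. The groups were far apart, and the mean fell from 865 ± 30.0 (SD) to 287 ± 58.6, a log2 fold change of -1.61 ± 0.15 (SE; adjusted p = 9.98e-05, limma). *Mrps18b* (chromosome 17, 36221266 to 36227606), a member of the S18 family, had 1279, 1250 and 1297 with vehicle and 525, 605 and 662 with melatonin, a log2 fold change of -1.10 ± 0.10 (adjusted p = 1.05e-04, limma). *Mrps26* (chromosome 2, 130405658 to 130410616), a mitochondria-specific protein, had 2587, 2478 and 2574 against 1343, 1309 and 1410, and its log2 fold change was -0.91 ± 0.07 (adjusted p = 6.11e-05, limma). For *Mrps26* the samples of either group lay close together, with an SD of 59.7 with vehicle and 51.5 with melatonin. *Mrps35* (chromosome 6, 146944205 to 146975489) had 972, 901 and 875 against 557, 551 and 612, a log2 fold change of -0.68 ± 0.09 (adjusted p = 5.88e-04, limma). All 4 genes were called lower in each of the 21 alternative fits of limma.

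In the large subunit, *Mrpl52* (chromosome 14, 54664360 to 54668593), found only in mitochondria, had 1105, 1068 and 1038 normalised counts with vehicle and 458, 498 and 678 with melatonin. Its mean with melatonin was 50.9% of that with vehicle, and the log2 fold change was -0.99 ± 0.14 (adjusted p = 6.79e-04, limma). *Mrpl54* (chromosome 10, 81097082 to 81102768) had 1208, 1118 and 1185 against 500, 687 and 651, a log2 fold change of -0.94 ± 0.13 (adjusted p = 4.99e-04, limma). *Mrpl47* (chromosome 3, 32779546 to 32791754), the counterpart of bacterial L29 at the rim of the exit tunnel, had 441, 462 and 374 against 209, 298 and 294, with a log2 fold change of -0.68 ± 0.16 (adjusted p = 0.00844, limma). *Mrpl11* (chromosome 19, 5012163 to 5017100), at the base of the stalk that recruits the GTPase translation factors, had 996, 963 and 861 against 481, 604 and 721 and a log2 fold change of -0.66 ± 0.15 (adjusted p = 0.00582, limma). Melatonin replicate 1 was the lowest sample for each of these 4 genes, and the groups did not overlap for any of them. The melatonin samples of *Mrpl52* had an SD of 117, against 33.8 with vehicle, so that the size of its fall differed between samples. All 4 were called lower in each of the 21 alternative fits.

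The 3 members called higher did not share a place in the ribosome. *Mrpl10* (chromosome 11, 96932369 to 96940044) anchors the stalk proteins to the large subunit, next to the protein encoded by *Mrpl11*. It had 1747, 1680 and 1667 normalised counts with vehicle and 2337, 2253 and 2276 with melatonin, so the lowest melatonin value was far above the highest vehicle value, and its log2 fold change was 0.43 ± 0.07 (adjusted p = 0.00142, limma). *Mrpl14* (chromosome 17, 45996373 to 46010480), which faces the small subunit, had 938, 861 and 819 against 1259, 1094 and 1171, a log2 fold change of 0.43 ± 0.09 (adjusted p = 0.00566, limma). *Mrps17* (chromosome 5, 129792545 to 129799621), the counterpart of bacterial S17, had 2047, 1810 and 1768 against 2328, 2159 and 2218, a log2 fold change of 0.26 ± 0.08 (adjusted p = 0.0328, limma). The call of *Mrps17* was lost in 8 of 21 alternative fits, with adjusted p-values from 0.00971 to 0.786 over them, while the calls of *Mrpl10* and *Mrpl14* held in all 21.

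*Mrps31*, *Mrps6* and *Mrpl41* had positive fold changes that did not pass the test. *Mrps31* had 351, 346 and 359 normalised counts with vehicle and 411, 411 and 472 with melatonin, and although the groups did not overlap its adjusted p was 0.0508 (limma, log2 fold change 0.29, 95% interval 0.05 to 0.53). *Mrps6* had 895, 915 and 787 against 911, 1074 and 1204, with overlapping groups and a log2 fold change of 0.29 (adjusted p = 0.0705, limma). *Mrpl41* had 1348, 1258 and 1241 against 1193, 1513 and 1664, with melatonin replicate 1 below every vehicle sample and the other 2 above them (log2 fold change 0.17, adjusted p = 0.271, limma). *Mrps31* and *Mrps6* were each called higher in 5 of 21 alternative fits, and *Mrpl41* in 2.

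**Figure D2:**
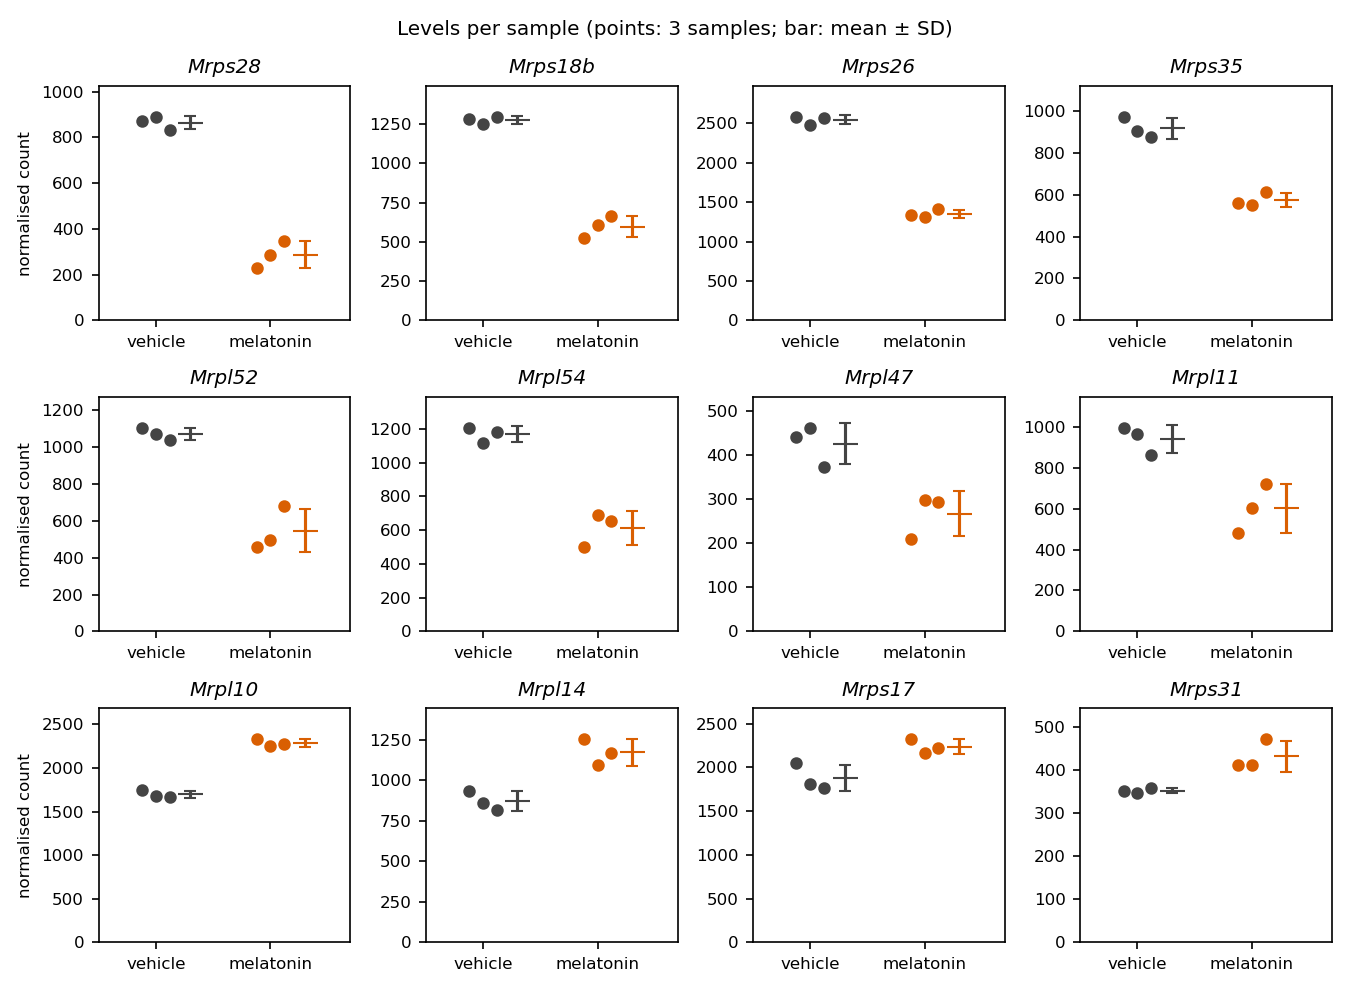
Normalised counts (vertical axis from 0) of 12 mitoribosomal genes in the 3 vehicle and 3 melatonin samples, with the mean and SD beside the points. In the first 8 panels (*Mrps28* to *Mrpl11*) every melatonin value lies below every vehicle value, and in the last 4 (*Mrpl10*, *Mrpl14*, *Mrps17*, *Mrps31*) every melatonin value lies above.

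The medians of the large and the small subunit were nearly equal. In the large subunit 25 of 49 genes (51.0%) were called lower and 2 higher, with a median log2 fold change of -0.2503. In the small subunit 13 of 29 (44.8%) were called lower and 1 higher, with a median of -0.2466. The shares over all genes tested were 24.7% lower and 24.5% higher. Without melatonin replicate 1 the large subunit had 23 lower and 3 higher, and the small subunit 12 lower and 3 higher. The main test's count of 13 small-subunit genes called lower went to 8 without vehicle replicate 1 or without vehicle replicate 2, and to 7 at a threshold of 0.01. The fold changes ran from -0.99 to 0.43 in the large subunit and from -1.61 to 0.29 in the small subunit. They were positive for 5 of 49 genes of the large and 6 of 29 of the small subunit, with upper quartiles of -0.16 and -0.05. Symbols do not follow the structure in every case: *Mrps30* (-0.13, not called) and *Mrps18a* (-0.50, called lower) encode proteins of the large subunit, and the product of *Mrps36* (-0.47, called lower) is counted as a part of the oxoglutarate dehydrogenase complex. With these 3 genes placed by structure, 26 of 51 genes of the large subunit and 11 of 26 of the small subunit were called lower.

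The fall was present in each melatonin sample but not to the same extent. Each gene's log2 level was centred on its mean over the 6 samples, and the median over the 78 genes was 0.17, 0.17 and 0.08 in vehicle replicates 1, 2 and 3 and -0.26, -0.11 and -0.06 in melatonin replicates 1, 2 and 3. Melatonin replicate 1 held the lowest melatonin value of 57 members, and melatonin replicate 3 the highest of 55. In the vehicle group, replicate 3 was the lowest for 55 members. Against all 3 vehicle samples, 69 members were lower in melatonin replicate 1, 61 in replicate 2 and 53 in replicate 3. Over all genes tested the same held for 42.4%, 41.6% and 40.6%. Members above all 3 vehicle samples numbered 4, 10 and 13 in melatonin replicates 1, 2 and 3, while over all genes tested 42.5%, 41.7% and 39.6% were above. The coefficient of variation between samples had a median over the members of 9.26% with melatonin and 5.28% with vehicle, and it was larger with melatonin for 60 members.

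**Figure D3:**
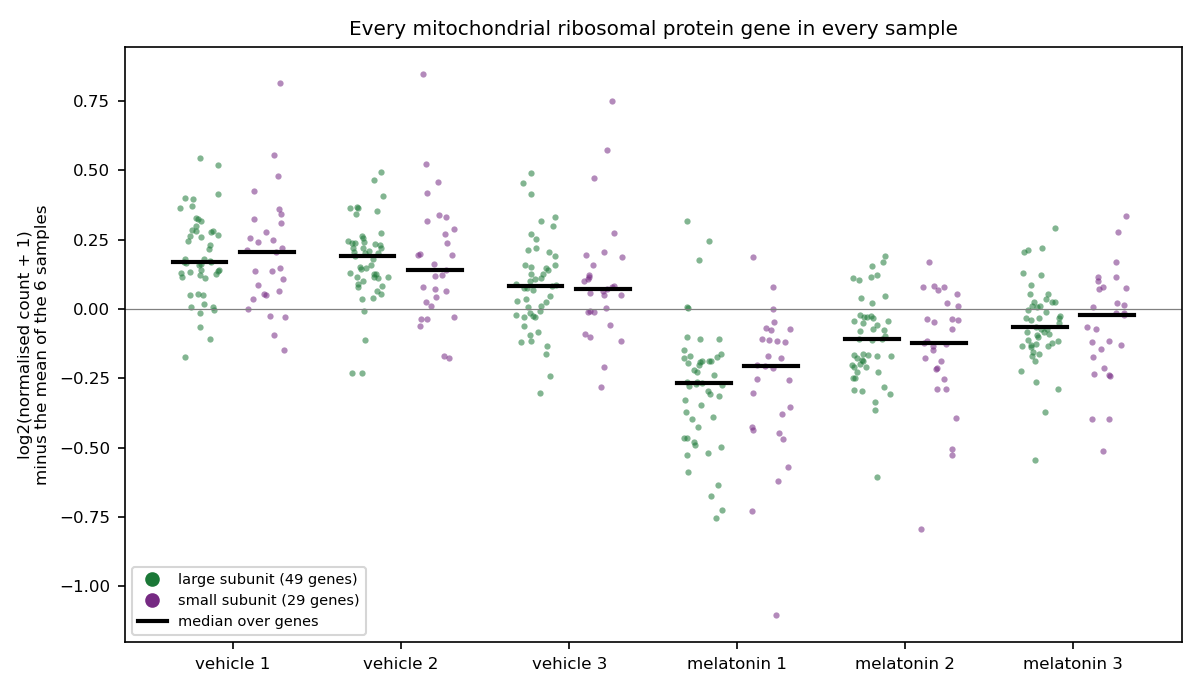
Log2(normalised count + 1) of every member minus its mean over the 6 samples (vertical axis), by sample, with the large subunit in green, the small subunit in purple and the median over genes as a black bar. The medians over all members are 0.17, 0.17 and 0.08 in the vehicle samples and -0.26, -0.11 and -0.06 in the melatonin samples, and the bars of both subunits lie close together in each sample.

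As a share of all normalised counts in a sample, the members took 0.578%, 0.562% and 0.542% with vehicle and 0.439%, 0.483% and 0.517% with melatonin, so that the highest melatonin share was under the lowest vehicle share. The mean was 0.561% ± 0.018 with vehicle and 0.480% ± 0.039 with melatonin (SD, n = 3). The summed level of the small subunit was 0.521, 0.514 and 0.521 of that of the large subunit with vehicle and 0.522, 0.503 and 0.512 with melatonin, values that overlap. No p-value is given for sums or medians over the members.

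By position in the ribosome, 3 of 4 genes around the peptidyl transferase centre, where the peptide bond is formed, were called lower. Over all genes tested, 24.7% were called lower and 24.5% higher. *Mrpl3* (-0.44), *Mrpl2* (-0.47) and *Mrpl4* (-0.30) were called, and *Mrpl16* was at -0.25 with an adjusted p of 0.0958 (limma). In 3 of 21 alternative fits *Mrpl16* was called lower. Of the 3 genes of the stalk, *Mrpl11* and *Mrpl12* (-0.47, adjusted p = 0.0117) were lower and *Mrpl10* was higher. *Mrpl12* encodes the L7/L12 stalk protein itself and had 2883, 2802 and 2716 normalised counts with vehicle and 1650, 2311 and 2160 with melatonin. *Mrpl10*, *Mrpl11* and *Mrpl12* encode neighbouring proteins, and their fold changes had opposite signs in each of the 21 alternative fits.

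At the rim of the exit tunnel and its anchor to the inner membrane, 3 of 6 genes were called lower, *Mrpl47*, *Mrpl24* (-0.58, adjusted p = 0.00495, limma) and *Mrpl22* (-0.32, adjusted p = 0.0296), the last with its call lost in 6 of 21 alternative fits. *Mrpl45*, whose product ties the ribosome to the membrane, had 1478, 1535 and 1349 normalised counts with vehicle and 1214, 1292 and 1224 with melatonin, which did not overlap, at an adjusted p of 0.0516. In 9 of 21 alternative fits *Mrpl45* was called lower. In the central protuberance, a mound on top of the large subunit, 2 of 8 were called lower, a share near the 24.7% of all genes tested. These were *Mrpl38* (-0.65, adjusted p = 0.00115) and *Mrpl58* (-0.51, adjusted p = 0.00734), a peptidyl-tRNA hydrolase that became a part of the ribosome, and none of the 8 was called higher.

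Among 15 small-subunit genes listed for the decoding site and body, each with a bacterial homologue, 6 were called lower and 1 higher, against 24.7% and 24.5% of all genes tested, with a median log2 fold change of -0.24. The counts were 5 and 2 without melatonin replicate 1. *Mrps16* (-0.54), *Mrps7* (-0.52) and *Mrps5* (-0.41) were among the 6, the calls of *Mrps16* and *Mrps5* being lost in 1 and 3 of 21 alternative fits. In contrast, *Mrps12*, the counterpart of the decoding protein S12, stood at 1235, 1163 and 1182 normalised counts with vehicle and 1154, 1159 and 1261 with melatonin. The 95% interval of its log2 fold change was -0.19 to 0.18. Of 10 small-subunit proteins listed as mitochondria-specific by their place in the ribosome, *Mrps18b* included, 4 were lower and none higher (4 and 1 without melatonin replicate 1), the largest after *Mrps18b*, *Mrps26* and *Mrps35* being *Mrps22* (-0.65, adjusted p = 0.00452, limma). Over both subunits, 24 of 45 genes listed with a bacterial homologue (53.3%) and 11 of 29 listed as mitochondria-specific (37.9%) were called lower, with medians of -0.26 and -0.22. *Mrps18a*, *Mrps28*, *Mrps30* and *Mrps36* were in neither list. With *Mrps28* and the S18 family members *Mrps18a* and *Mrps18b* moved to the genes with a bacterial homologue, a grouping made after their values were seen, the counts were 27 of 48 and 10 of 28, with medians of -0.30 and -0.22.

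*Mrps18a*, *Mrps18b* and *Mrps18c* descend from a single S18 gene and sit at different places in the ribosome. *Mrps18b* had the largest fall of the 3. *Mrps18a* had 1449, 1377 and 1346 normalised counts with vehicle and 980, 956 and 1007 with melatonin, a log2 fold change of -0.50 ± 0.08 (adjusted p = 0.00107, limma). *Mrps18c*, which keeps the place of bacterial S18, had 1217, 1173 and 983 against 887, 899 and 1028, with overlapping groups and an adjusted p of 0.0779 at a log2 fold change of -0.26. In 7 of 21 alternative fits *Mrps18c* was called lower. The 95% interval of the fold change was -1.33 to -0.87 for *Mrps18b*, -0.68 to -0.32 for *Mrps18a* and -0.51 to -0.01 for *Mrps18c*, so the interval of *Mrps18b* did not meet those of the other 2. The difference itself was not tested.

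Levels between genes were compared per kilobase of the canonical transcript. With vehicle the median member had 615 normalised counts per kilobase, the quartiles lay at 320 and 1033, and *Mrpl33* was the highest at 5427. *Mrpl33*, a small protein of the large subunit, had 4223, 4122 and 3572 normalised counts with vehicle and 3186, 3219 and 3631 with melatonin, and its log2 fold change of -0.25 had an adjusted p of 0.0523 (limma). *Mrpl42* followed at 3187 per kilobase (log2 fold change -0.20, adjusted p = 0.0946), and 2 of 21 alternative fits called it lower. In the small subunit *Mrps21* led at 2773 per kilobase and *Mrps12* followed at 1600, with log2 fold changes of 0.0061 and -0.0032. Neither was called, but with a correction for transcript length they were at 0.35 (adjusted p = 0.00854, limma) and 0.28 (adjusted p = 0.00958). The order rests on transcript lengths, since some members carry long 3′ ends in the annotation (7366 bases for *Mrpl17*, 5894 for *Mrps17*), and per kilobase of coding sequence *Mrpl33* still led the large subunit while *Mrps14* led the small subunit at 7373. Across the 78 members the fold change was nearly unrelated to transcript length (Spearman's rho -0.06), coding length (-0.12), GC content (-0.07) and vehicle level per kilobase (0.03), and weakly to the mean level (0.21). Genes are not independent replicates, and these values share the same 6 libraries.

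*Mrpl23* stood far below the other members, at 60.3, 63.8 and 48.7 normalised counts with vehicle and 61.8, 61.5 and 37.1 with melatonin (log2 fold change -0.13, adjusted p = 0.703, limma). Its processed copy, *Mrpl23-ps1*, was listed at 1652, 1569 and 1606 with vehicle and 948, 962 and 1171 with melatonin, a log2 fold change of -0.65 (adjusted p = 9.42e-04, limma). Of the 539 stretches of 31 bases in the annotated transcript of *Mrpl23-ps1*, 510 (94.6%) also occur in transcripts of *Mrpl23*, so the counting could assign reads of the gene to the copy, and the value of *Mrpl23* alone is uncertain. Summed, gene and copy had 1712, 1633 and 1655 normalised counts with vehicle and 1009, 1024 and 1208 with melatonin, with no overlap and a difference of -0.63 in mean log2. In all, 5 of 6 annotated pseudogenes of members were listed, and the other 4 of these were not called.

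The library kit does not mark the strand, so reads from exons that a member shares with a gene on the other strand cannot be told apart. Exons of 28 members overlap those of another listed gene, and for 10 members the overlap covers at least 25% of the canonical transcript. Among the genes named above, *Mrpl54* shares 75.5% with *Matk*, which was at 41.2 to 50.4 normalised counts with vehicle and 10.1 to 28.0 with melatonin (log2 fold change -1.37, adjusted p = 0.0150, limma), and *Mrps18b* shares 49.5% with the non-coding *Gm16279*, at 25.1 to 36.7 and 27.5 to 47.1. *Mrpl10* shares 49.4% with *Gm11574*, which had at most 6.53 normalised counts in any sample, and *Mrps6* shares 38.9% with *Slc5a3* on the same strand, at 17.8 to 56.8 over the 6 samples. These neighbours were far below the members themselves. The values of *Mrps18c*, which shares 64.2% with *Abraxas1* (375 to 537 normalised counts over the 6 samples), and of *Mrpl24*, which shares 39.8% with *Mettl25b* (256 to 388), are less certain, since the neighbours were not far below them. The same holds for *Mrpl13* and *Mrpl19*, both called lower, and *Mrps25*, not called. *Mrpl13* (vehicle mean 1793) shares 30% with *Mtbp* (891), *Mrpl19* (1050) shares 39.2% with *Gcfc2* (247) and *Mrps25* (1503) shares 57.9% with *Nr2c2* (348). *Mrpl37* (2006), called lower, shares 29.9% with *Cyb5rl* (195), which was called higher (0.62, adjusted p = 0.00387, limma). For 6 members a neighbour that shares exon bases was higher than the member itself with vehicle, and their values are less certain too. *Mrpl47* shares 13.6% of its transcript with *Actl6a*, which had a mean of 4452 normalised counts with vehicle and 3349 with melatonin and was called lower (-0.41, adjusted p = 0.00159, limma), and 4.7% with *Ndufb5*. *Mrps22* shares 16.4% with *Copb2*, at 3898 and 3265 and also called lower (-0.26, adjusted p = 0.0312). The other 4 were *Mrpl18*, *Mrps7*, *Mrps14* and *Mrps27*. The 50 members that overlap no listed gene gave 24 lower (48%), 2 higher (4%) and a median of -0.24, against 24.7% lower and 24.5% higher of all genes tested. Overlaps with genes that are not listed remain among them. *Mrpl34*, called lower, shares 82% with the non-coding *Gm64263*, which has no value here.

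Many mitoribosomal genes start back to back with a gene on the other strand, from a shared promoter region. Within a distance of 500 bases between starts, 24 members had such a partner, and *Mrpl46* and *Mrps11*, whose starts lie 30 bases apart, were each other's. *Mrps11* was called lower (-0.31, adjusted p = 0.0208, limma), with its call lost in 3 of 21 alternative fits, and *Mrpl46* had -0.24 (adjusted p = 0.0823). In 4 of 21 alternative fits *Mrpl46* was called lower. Of the 21 tested partners that are not members, 4 were called lower, 3 higher and 14 not, shares no larger than the 24.7% and 24.5% of all genes tested, with a median log2 fold change of 0.12. Without melatonin replicate 1, 6 partners were lower and 3 higher. The member and the partner were called lower together in only 1 pair, *Mrpl47* and *Ndufb5* (-0.31, adjusted p = 0.00986), a subunit of respiratory complex I, whose call was lost in 2 of 21 alternative fits. As given above, *Mrpl47* shares 4.7% of its transcript with *Ndufb5*, and reads from there cannot be told apart. Other members share exon bases with their partners too, such as *Mrps7* with *Gga3* (8.1%) and *Mrpl13* with *Mtbp* (30%). In 6 pairs the member was called lower and the partner was not called, and in 3 pairs the partner fell while the member was not called. In another 3 pairs the partner was called higher while the member was not called. The starts of *Mrpl49* and *Fau*, which encodes a cytosolic ribosomal protein, lie 52 bases apart. *Mrpl49* had 1874, 1949 and 1760 normalised counts with vehicle and 1869, 1829 and 1913 with melatonin, whereas *Fau* had a log2 fold change of -1.15 (adjusted p = 5.07e-04, limma). Likewise *Psma2*, a proteasome subunit, was at -0.80 beside *Mrpl32* at -0.03, and *Sars2*, the mitochondrial seryl-tRNA synthetase, at -0.79 beside *Mrps12*.

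**Figure D4:**
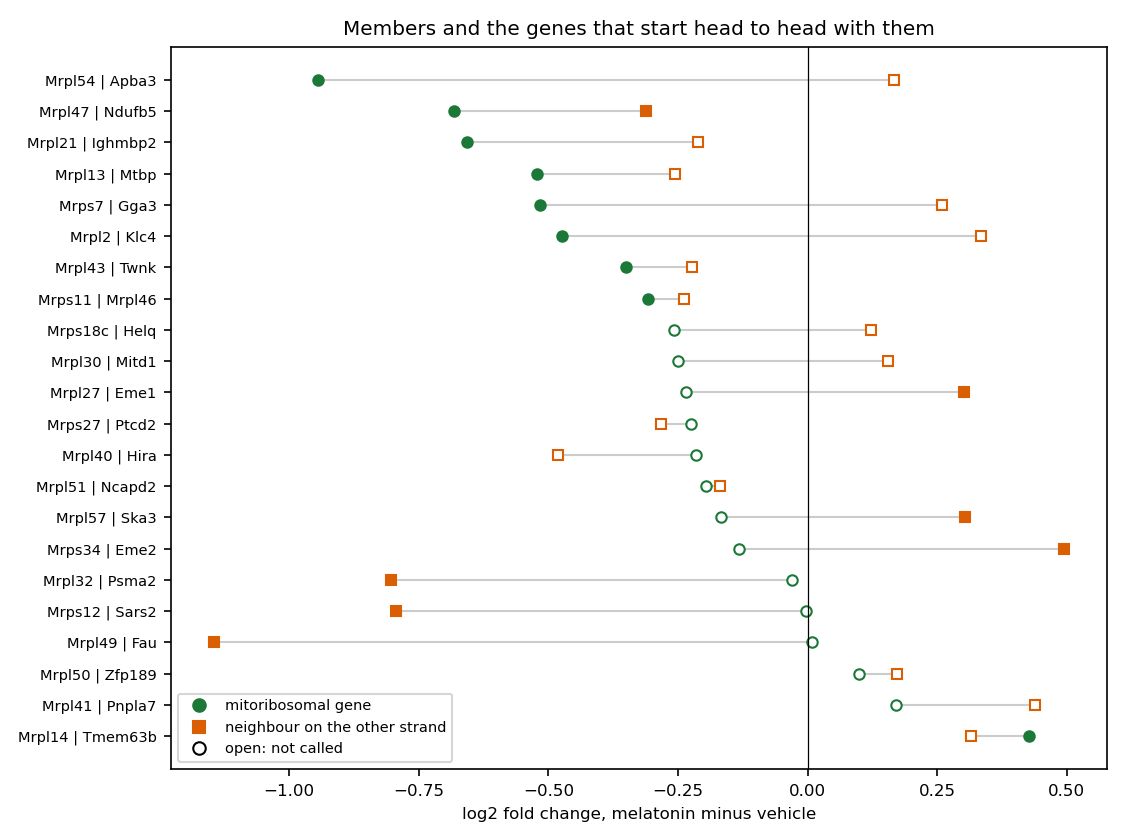
Log2 fold change (horizontal axis) of members (green circles) and of the genes whose starts lie within 500 bases on the other strand (orange squares), with open symbols for genes not called. The row for *Mrpl49* and *Fau* spans 0.01 to -1.15, and only in the row for *Mrpl47* and *Ndufb5* are both symbols filled on the lower side.

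The window of 250 bases before each gene's RefSeq start, present for 69 of the 78 members in the promoter table of GRCm38.p6, was searched on both strands for the letters of 3 motifs. GCGCATGCG, for NRF1 (nuclear respiratory factor 1, an activator of nuclear genes for mitochondrial proteins), was in 7 of 69 windows (10.1%), against 1.49% of all 27025 promoters in the table and 3.06% of those of tested genes. It reads nearly the same on both strands, so some sites match in both directions. CCGGAAG, the core of ETS factors such as GABP, was in 17 of 69 (24.6%), against 7.05% and 14.5%, and AAGATGGC, for YY1, in 4 of 69 (5.80%), against 1.59% and 2.10%. Hits of different motifs did not overlap in any member. Of the 17 members with the ETS letters 11 were called lower and none higher (median log2 fold change -0.44, against -0.22 for the 52 without), while of all tested genes with these letters 23.1% were lower and 28.2% higher. For the other 2 motifs the medians ran the other way, at -0.13 with and -0.24 without the NRF1 letters and at -0.17 with and -0.24 without the YY1 letters. Of the 7 with the NRF1 letters 3 were lower and 1, *Mrpl10*, was higher, and of the 4 with the YY1 letters 2 were lower. Of all tested genes with these letters, 19.9% were lower and 29.9% higher for NRF1, and 22.2% and 26.1% for YY1. Without melatonin replicate 1, 10 members with the ETS letters, 2 with the NRF1 letters and 2 with the YY1 letters were lower. The 9 members without a window are on neither side of these medians, and they include the largest fall, that of *Mrps28* (-1.61). *Mrpl54* (-0.94), *Mrps35* (-0.68), *Mrpl38* (-0.65), *Mrpl19*, *Mrpl13*, *Mrpl15* and *Mrpl4* among them were also called lower, and *Mrps34* was not called. A match describes the sequence and does not show that a factor binds there.

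Windows are shown for the 5 members with a match among the genes given full statistics, as defined below. They are shown because *Mrpl10* and *Mrps18b*, with the same NRF1 letters, moved in opposite directions. Sequences are those of RefSeq, placed by exact match on GRCm39, in lower case and 5′ to 3′ on the strand of the gene, with the match in capitals. These 5 matches lie on the opposite strand and so read as the reverse complement. *Mrpl52* (chr14:54664116-54664365, plus strand) and *Mrps26* (chr2:130405427-130405676, plus strand) hold the ETS letters and were called lower. *Mrpl10* (chr11:96932158-96932368, plus strand, up to the annotated start of the gene) holds the NRF1 letters and was called higher. *Mrps18b* (chr17:36227538-36227566, minus strand) holds the same letters and was called lower, and *Mrps12* (chr7:28441428-28441455, minus strand) holds the YY1 letters and was not called. For the last 2 only the match and 10 bases on either side are given, since the window lies inside the annotated gene.
Mrpl52: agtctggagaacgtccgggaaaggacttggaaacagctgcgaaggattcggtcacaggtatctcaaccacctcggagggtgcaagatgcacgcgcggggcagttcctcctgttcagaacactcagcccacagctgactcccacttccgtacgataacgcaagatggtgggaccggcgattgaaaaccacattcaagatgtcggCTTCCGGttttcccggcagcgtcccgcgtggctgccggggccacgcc
Mrps26: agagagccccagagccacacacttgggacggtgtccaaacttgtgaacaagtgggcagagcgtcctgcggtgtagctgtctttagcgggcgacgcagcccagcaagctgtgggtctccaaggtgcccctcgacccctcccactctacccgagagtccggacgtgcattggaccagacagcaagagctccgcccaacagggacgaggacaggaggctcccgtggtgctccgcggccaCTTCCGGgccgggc
Mrpl10: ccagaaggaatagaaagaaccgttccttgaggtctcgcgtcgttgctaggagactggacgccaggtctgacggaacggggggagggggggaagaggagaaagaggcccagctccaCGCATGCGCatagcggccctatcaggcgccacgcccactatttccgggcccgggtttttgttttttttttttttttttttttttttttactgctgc
Mrps18b: aacggcccgaCGCATGCGCactgggagca
Mrps12: catggacgcaGCCATCTTggagtggaaa

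The regulators named for such sites were measured too. *Yy1* had 974, 803 and 721 normalised counts with vehicle and 414, 295 and 412 with melatonin, a log2 fold change of -1.16 ± 0.16 (adjusted p = 6.40e-04, limma), and *Gabpb2*, a beta subunit of GABP, was at -0.98 (adjusted p = 7.12e-04). *Nrf1* (0.11, adjusted p = 0.370), *Gabpa* (-0.08, adjusted p = 0.550) and *Gabpb1* (0.14, adjusted p = 0.158) were not called. *Myc* (-0.53, adjusted p = 0.00800) and *Pprc1*, a coactivator of the PGC-1 family (-0.46, adjusted p = 0.00899), were lower, as was *Ppargc1b* (-0.54, adjusted p = 0.0464), whose call was lost in 8 of 21 alternative fits. In all, 5 of 9 tested regulators were lower and none was higher, against 24.7% and 24.5% of all genes tested, and *Ppargc1a* was not listed.

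Other proteins of the mitoribosome and the genes that build and serve it were mixed. Of 5 mitoribosomal proteins without an *Mrp* symbol, 3 were called lower, against 24.7% of all genes tested. These were *Chchd1* (-0.61, adjusted p = 0.0104, limma), *Gadd45gip1* (-0.45, adjusted p = 0.00462) and *Ptcd3* (-0.30, adjusted p = 0.0147). The calls of *Chchd1* and *Ptcd3* were lost in 1 and 2 of 21 alternative fits. *Dap3* (0.06) and *Aurkaip1* (0.04) were not called. Among 24 assembly and rRNA modification factors 4 were lower (16.7%) and 6 higher (25%), with a median log2 fold change of 0.10. The share of higher calls was near the 24.5% of all genes tested, and that of lower calls was under the 24.7%. Without melatonin replicate 1 the counts were 2 lower and 6 higher, with a median of 0.06. *Nsun4*, a methyltransferase that joins the last steps of subunit assembly, rose from 324, 409 and 403 normalised counts with vehicle to 839, 804 and 809 with melatonin (log2 fold change 1.12 ± 0.12, adjusted p = 1.67e-04, limma). *Mterf3* (0.63, adjusted p = 0.00231) and the GTPase gene *Mtg2* (0.53, adjusted p = 0.00321) were also higher, while the GTPase gene *Mtg1* (-0.46, adjusted p = 0.00679) was the lowest of the list and *Rpusd4* (-0.43, adjusted p = 0.00392) was lower too.

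Among 18 translation factors and helpers, 7 were lower (38.9%) and 4 higher (22.2%), with a median of -0.28. Over all genes tested 24.7% were lower and 24.5% higher, the latter near the share in this list. The counts were the same without melatonin replicate 1, and the median was -0.19. The elongation factor gene *Tufm*, which delivers aminoacyl-tRNA, had 1269, 1273 and 1368 normalised counts with vehicle and 829, 750 and 863 with melatonin (log2 fold change -0.68 ± 0.09, adjusted p = 4.71e-04, limma), and its exchange factor *Tsfm* was at -0.56 (adjusted p = 0.00969). *Slirp* (-0.66) and *Lrpprc* (-0.41), which together stabilise mitochondrial mRNA, and *Oxa1l* (-0.47), the insertase at the exit tunnel, were lower as well. *Mtrfr*, a rescue factor for stalled ribosomes, was the highest at 0.73 ± 0.11 (adjusted p = 8.84e-04, limma), and *Gfm2*, which recycles ribosomes, was at 0.51 (adjusted p = 0.00661), its call lost in 2 of 21 alternative fits.

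The cytosolic ribosomal protein genes, which encode the other ribosome of the cell, fell further. Of 86 tested, 83 were called lower (96.5%) and none higher, with a median log2 fold change of -1.06, against 48.7%, 3 higher and -0.25 for the mitoribosomal genes. Among all genes tested the shares were 24.7% lower and 24.5% higher. Of the cytosolic genes, 82 were lower without melatonin replicate 1. The 3 that were not called were *Rps19bp1*, which encodes a binding partner of a ribosomal protein and was matched by its symbol, *Rpl7l1* and *Rpl27rt*. The lowest, *Rpl39l*, had 28.0, 29.0 and 22.0 normalised counts with vehicle and 8.40, 4.37 and 6.03 with melatonin (log2 fold change -1.94, adjusted p = 0.00345, limma). As a share of all normalised counts the cytosolic genes took 1.48%, 1.33% and 1.37% with vehicle and 0.596%, 0.713% and 0.886% with melatonin, a mean with melatonin of 0.524 times that with vehicle, where the mitoribosomal genes kept 0.856. The difference between the 2 families was not tested as such. Some cytosolic genes stood far below a copy that was counted in the family. With vehicle *Rpl10* had 233, 190 and 232 normalised counts and *Rpl10-ps3* had 14656, 13409 and 13350. The same held for *Rps18* and *Rps18-ps6* and for *Rpl9* and *Rpl9-ps6*. Whether reads went to copies of these genes was not tested. Copies annotated as pseudogenes are left out of the shares of both families, so these are not shares of all their RNA.

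**Figure D5:**
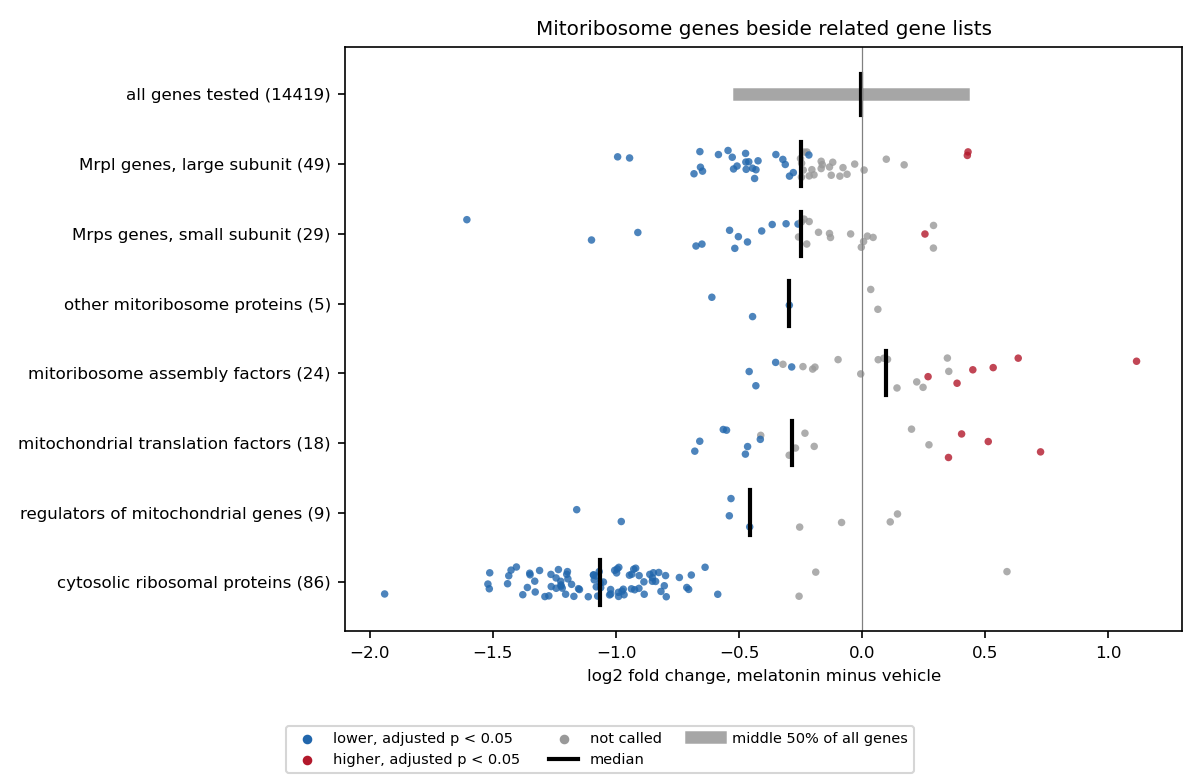
Log2 fold change (horizontal axis) of the large-subunit and small-subunit genes beside other mitoribosomal proteins, assembly factors, translation factors, regulators and cytosolic ribosomal proteins, with the median as a black bar and the span between the quartiles of all 14419 genes tested in grey. The medians are -0.25 for both subunits, 0.10 for assembly factors, -0.28 for translation factors and -1.06 for cytosolic ribosomal proteins.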

How the data were processed

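Total RNA of 6 samples was sequenced from cDNA of a low-input kit that does not mark the strand. Per the study's methods, the authors trimmed the reads, aligned them to mm39, quantified Gencode M33 genes with an expectation-maximisation algorithm that divides reads among genes, removed genes under 10 counts in all samples and scaled the samples with DESeq2's median ratio method. What the authors deposited was taken as a signal: each estimated count over its sample's size factor. Only 63.4% to 66.0% of them were whole multiples of the value of 1 read (tolerance 0.01), so whole reads were not recovered and no count test was the main test. Estimated counts were 17056266 to 20511708 per sample.

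Symbols, positions and lengths came from Gencode M39 on GRCm39, which names 16334 of the 16381 genes. Differences were tested with limma 3.58.1 under R 4.3.3 (lmFit, eBayes with trend) on log2(value + 1), with treatment as the only term, over 14419 genes with at least 10 in at least 1 sample, with Benjamini-Hochberg adjustment and a threshold of 0.05. Fold changes are on that scale, which understates the change of low genes. Groups came from the sample titles. The members and lists were chosen with earlier results of these data known, so lists are described by counts and medians and carry no p-value. Genes with full statistics were, in each subunit, the 4 lowest and 3 highest fold changes among members with a mean of at least 100, the 2 highest levels per kilobase, every member called higher, and the lowest and highest of each related list. Other genes were named after their values were seen. Alternatives were pseudocounts of 0.1 and 10, no filter or a mean of at least 100, scaling to the same total, upper quartile scaling, quantile normalisation, no trend, voom, sample weights, a replicate block, each sample left out, corrections for transcript length and GC content (lowess, span 0.3), no chromosomes X and Y, subunits by structure, a threshold of 0.01 and, for the share of counts, leaving out the 10 most abundant genes or weighting by length. A correction for coding length was added after the data were seen. The script was tested on simulated data. Tables used pandas 2.3.3 and plots matplotlib 3.10.9. Sequences of the 9 members outside the promoter table were not used here.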

Additional observations from a re-analysis of the deposited data

How the results depend on the processing

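Members called lower ranged from 25 (at a threshold of 0.01) to 50 over the alternatives, and the median over members from -0.34 to -0.21. At 0.01 the small subunit had 7 called lower. Members called higher numbered 6 with sample weights, 5 with scaling to the same total and 5 with the transcript length correction. With the GC correction the median was -0.3433 for all members, -0.3506 for the large and -0.3324 for the small subunit, and over all genes tested -0.07. With 1 sample left out, members called lower ranged from 28 to 44, members called higher from 2 (without vehicle replicate 2 or 3, or melatonin replicate 2 or 3) to 6 (without melatonin replicate 1), and small-subunit members called lower from 8 (without vehicle replicate 1 or 2) to 16. The difference of the subunit medians stayed between -0.0396 and 0.012. Of all calls, 50.3% were lower in the main test, 61.2% with the transcript length and 61.3% with the coding length correction, which put the median of all genes at -0.10 and -0.09. The same replicate numbers did not pair the samples (correlations of their deviations -0.106, 0.136 and -0.194). The replicate block gave 33 members lower and 3 higher.

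Fold changes of genes that the main test did not call changed sign, and the cause was not tested. The transcript length correction gave 0.0424 for Mrpl33 (-0.25 in the main test, and called lower in 9 of 21 alternatives), 0.0709 for Mrpl42 (-0.20), 0.281 for Mrps12, 0.169 for Mrpl23 and -0.0229 for Mrpl49. The coding length correction, chosen after seeing the data, gave 0.0365 for Mrps12, -0.107 for Dap3, -0.00745 for Aurkaip1 and -0.0892 for Nrf1, and the GC correction -0.0513 for Mrpl49. Quantile normalisation gave -0.0324 for Mrps21, 0.0106 for Mrpl23 and -0.0116 for Mrpl49, and upper quartile scaling -0.0436 for Mrps21, -0.0415 for Mrpl49 and -0.0146 for Aurkaip1. Voom gave -0.00311 for Mrps21 and -0.000342 for Mrpl49, sample weights -0.0143 for Mrpl49 and 0.0274 for Mrpl32, and scaling to the same total 0.0348 for Mrps12 and 0.00797 for Mrpl32. With 1 sample left out, Mrps21 ranged from -0.0503 to 0.0624, Mrps12 from -0.0446 to 0.0217, Dap3 from -0.00911 to 0.145, Mrpl23 from -0.253 to 0.107, Mrpl49 from -0.0315 to 0.0421, Mrpl32 from -0.0955 to 0.0563, Aurkaip1 from -0.0257 to 0.0933 and Gabpa from -0.148 to 0.0195. Among these only Mrps12 then passed the threshold, with the transcript length correction.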
